A study of Mus musculus with 5 samples.

Results

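Of 10 core circadian clock genes, Arntl (also named Bmal1), Clock, Per1, Per2, Per3, Cry1, Cry2, Nr1d1, Nr1d2 and Dbp, 9 could be measured in livers of mice labelled Fra-1hep, and their fitted changes lay between -0.25 and 0.37 on the log2 scale. Cry2 rose 1.29-fold and Clock fell by 0.25 on the log2 scale, while Dbp, Arntl, Per1, Per2, Per3, Nr1d1 and Nr1d2 did not pass the test, which 26.6% of all features passed. The genes were taken by name, through the transcript accession that each array probe carries, and not by their values. They had 11 probes, of which 10 passed a filter on dim signals, among 21538 features tested in all (13556 of them genes named in RefSeq). The probe of Cry1 did not pass that filter. The other genes have 1 probe each, except Dbp with 2.

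The samples were livers of Fra-1 hep mice (Fra-1hep below) on the C57BL/6J background, in which Fra-1, a subunit of the AP-1 transcription factor encoded by Fosl1, is overexpressed in hepatocytes according to the labels, and livers of C57BL/6J wt controls. RNA of 4 single Fra-1hep mice in Cy5 was set against a pool of 5 control mice in Cy3 on 1 two-colour array each, and a further, dye-swapped array carried pooled Fra-1hep RNA labelled with Cy3 against the control pool in Cy5. Mice of both genotypes were 26 to 28 weeks old and had been fed a diet with 45% of its energy as fat from 4 weeks of age. The promoter that drives the transgene, the mice that entered the Fra-1hep pool, and the time of day and feeding state at which livers were taken are not given in the sources used here.

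The circadian clock is a loop of transcription and translation that runs in nearly every cell of the liver. CLOCK and BMAL1, or NPAS2 in place of CLOCK, bind E-boxes and activate the Per, Cry, Nr1d and Dbp genes, and PER and CRY proteins then repress that activity. The Nr1d1 and Nr1d2 proteins (REV-ERB alpha and beta) repress Arntl through RORE elements, at which ROR receptors activate. DBP and its relatives TEF and HLF act at D-boxes, against the repressor NFIL3. In mouse liver, Arntl, Clock and Npas2 transcripts peak near the end of the night, Nr1d1 around the middle of the day, Dbp, Per3 and Nr1d2 in the afternoon, Per1 and Per2 around dusk, and Cry1 later in the night, and Dbp is among the transcripts with the widest daily swing. An earlier or later phase of one intact clock, sampled at 1 time, therefore moves genes of opposite phase in opposite directions. Whether the members did so is described here, but the phase itself was not tested, since the livers give no time course.

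RefSeq start-site windows, from 250 bases before to 50 bases after the start (GRCm38.p6), were found for 9 of the 10 members in 13 windows. They show where the letters of clock elements stand near these starts, and whether clock proteins bind there was not tested. Both strands were searched for the E-box (CACGTG), an E-box-like form (CACGTT), the D-box (TTATGTAA or TTACGTAA), the RORE half-site (AGGTCA) and the AP-1 site (TGANTCA), and these letters do not overlap in the windows printed. The E-box stood in windows of Per1 and Cry1, against 7.15% of all 32851 windows. The E-box-like form stood in those of Cry1, Cry2 and Nr1d1 (4.68% of all windows), the D-box in Per3 (1.06%), and the RORE half-site in Arntl, Clock, Per1 and Nr1d2 (16.3%). The AP-1 letters stood in 0 of the 13 windows and in 7.81% of all windows. The 4 windows below are those of Cry2, the member that rose, of Per1 with an E-box at position -166 from the start, of Per3 with D-boxes at -205 and -158, and of Arntl with a RORE half-site at 31. Letters matched on either strand are in capitals.
Cry2, chr2:92434020-92434319, minus strand: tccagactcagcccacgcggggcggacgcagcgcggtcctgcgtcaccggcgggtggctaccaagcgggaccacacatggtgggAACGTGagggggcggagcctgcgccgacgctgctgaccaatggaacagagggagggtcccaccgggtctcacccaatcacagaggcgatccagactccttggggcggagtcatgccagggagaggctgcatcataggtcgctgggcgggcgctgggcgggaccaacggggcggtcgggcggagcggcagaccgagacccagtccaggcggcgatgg
Per1, chr11:69098699-69098998, plus strand: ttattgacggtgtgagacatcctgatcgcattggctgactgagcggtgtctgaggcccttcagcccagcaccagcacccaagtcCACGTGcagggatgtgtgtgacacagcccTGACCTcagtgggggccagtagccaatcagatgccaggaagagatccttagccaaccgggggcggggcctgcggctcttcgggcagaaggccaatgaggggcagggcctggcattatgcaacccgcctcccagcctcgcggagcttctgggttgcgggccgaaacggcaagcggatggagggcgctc
Per3, chr4:151044616-151044915, minus strand: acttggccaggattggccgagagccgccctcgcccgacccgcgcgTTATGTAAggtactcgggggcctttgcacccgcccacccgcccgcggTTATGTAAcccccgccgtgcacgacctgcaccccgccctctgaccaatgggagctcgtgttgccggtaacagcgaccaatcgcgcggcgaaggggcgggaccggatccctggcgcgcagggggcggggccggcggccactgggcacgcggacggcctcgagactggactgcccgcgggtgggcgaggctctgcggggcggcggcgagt
Arntl, chr7:113207261-113207560, plus strand: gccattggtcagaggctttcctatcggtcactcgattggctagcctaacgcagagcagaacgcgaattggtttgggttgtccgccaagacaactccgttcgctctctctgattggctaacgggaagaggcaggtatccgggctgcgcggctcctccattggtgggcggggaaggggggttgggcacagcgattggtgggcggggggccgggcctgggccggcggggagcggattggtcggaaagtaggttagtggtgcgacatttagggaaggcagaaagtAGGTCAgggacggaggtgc

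Array quality bears on small changes such as these. Of the spots, 47.2% to 54.7% exceeded background clearly in Cy5 and 47.7% to 61.5% did so in Cy3. Log ratios of the mice correlated at 0.74 to 0.84 across features, and those of the Fra-1hep pool, turned to Fra-1hep over control, correlated with them at 0.59 to 0.61. These points share 1 control pool. Mouse 1 lay on a slide of its own. The single Fosl1 probe stood well above background in the Fra-1hep RNA of 0 of 5 arrays and in the control RNA of 1, with ratios of -0.37, -0.23, 0.11 and 0.12 in mice 1 to 4 and -0.09 in pooled Fra-1hep RNA. It did not show the overexpression that the labels give, and whether the probe matches the transgene's transcript was not tested. All 8 hepatocyte markers were detected in both channels on 5 of 5 arrays.

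Changes are given as log2 of Fra-1hep over control with their standard error, from a fit over all 5 arrays that also allows each gene a dye effect. In that fit the swapped array has as much weight as the 4 mice together. A gene passed where limma's p, adjusted by Benjamini-Hochberg over all 21538 features, was under 0.05. The fit compares Fra-1hep livers with 1 pool, so its error leaves out the spread among control mice. Of all features, 26.6% passed (11.2% higher and 15.4% lower). Of the 9 clock genes tested, 2 passed, 1 higher and 1 lower, and 7 did not. Their median change was 0.017, against -0.0034 over all features. Single ratios of the 9 genes ran from -0.43 to 0.59 over all arrays.

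**Figure D1:**
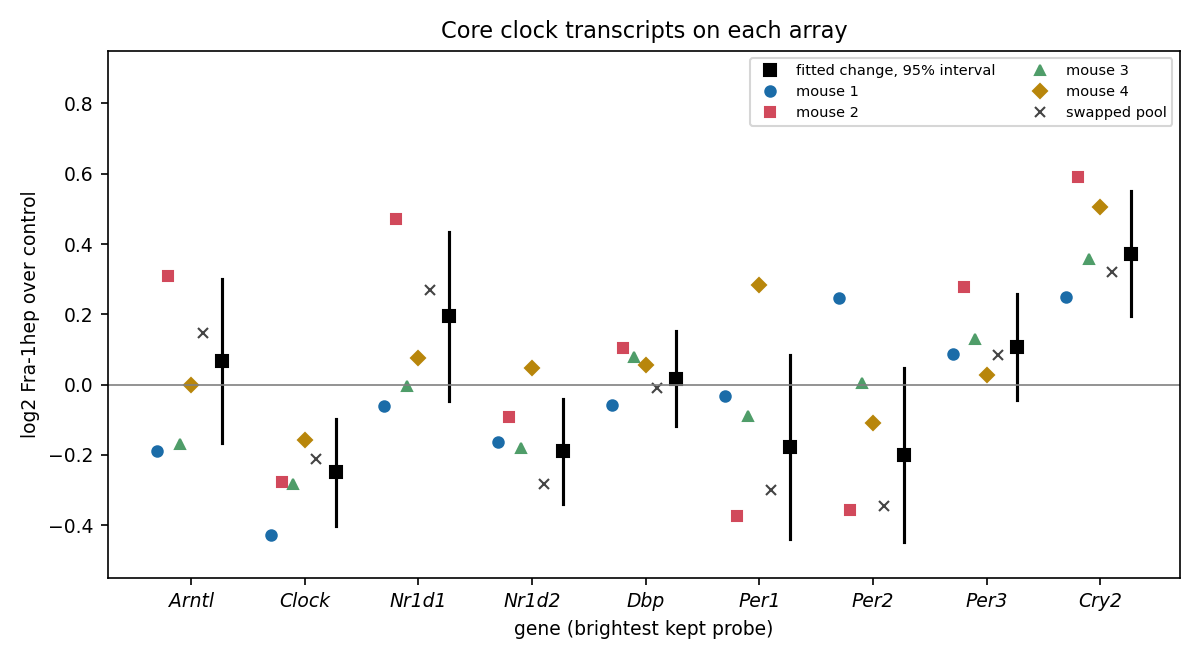
Log2 ratios of Fra-1hep over control for the 9 core clock genes tested: coloured symbols are the 4 Fra-1hep mice, crosses the dye-swapped Fra-1hep pool, and black squares with bars the fitted change with its 95% interval. Cry2 lies above 0 on all 5 arrays (0.25 to 0.59), Clock below 0 on all 5, and Dbp between -0.06 and 0.10.

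Among the activators, Clock had ratios of -0.43, -0.28, -0.28 and -0.16 in mice 1 to 4, with -0.21 in the Fra-1hep pool. All 5 arrays lay below control, mouse 1 lowest. The fitted change was -0.25 ± 0.06 (adjusted p = 0.0297, limma), with a 95% interval of 0.756 to 0.935 times the control level. The call of Clock ended without mouse 3 (-0.25, adjusted p = 0.064), with the scanner's processed signals or the deposited values (-0.38, adjusted p = 0.0693 for both) and with a spread for the pooled control mice added (adjusted p = 0.0936).

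Arntl encodes BMAL1, the partner of CLOCK. Its ratios were -0.19, 0.31, -0.17 and -0.00047 in mice 1 to 4, with 0.15 in the Fra-1hep pool, with mouse 2 above and mice 1 and 3 below the control pool. The fit gave 0.067 ± 0.099 (adjusted p = 0.653, limma), and its interval ran from 0.892 to 1.23 times control. The sign of Arntl turned without the swapped array (-0.012, adjusted p = 0.926). Npas2, the relative of Clock, was not well above background in either channel of any array.

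Of the repressors, Cry2, a cryptochrome that inhibits CLOCK and BMAL1, had ratios of 0.25, 0.59, 0.36 and 0.51 in mice 1 to 4, with 0.32 in the Fra-1hep pool. Each array lay above control. Cry2 rose by 0.37 ± 0.07 (adjusted p = 0.0127, limma), which is 1.14 to 1.46 times control at 95%. A change at least this large and positive was seen in 4.32% of all features. With a spread for the pooled controls added its adjusted p was 0.0474, and tested against a minimum change of 1.2-fold it did not pass (adjusted p = 0.756). Its window carries the E-box-like letters printed above.

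Cry1, the other cryptochrome, which is repressed through ROREs as well as activated through E-boxes, could not be read. Its probe was well above background on 1 of 5 arrays in the Fra-1hep channel and on 1 of 5 in the control channel. Ratios were 0.04, 0.0018, 0.035 and -0.025 in mice 1 to 4, with -0.37 in the Fra-1hep pool, and no fold is given.

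Per1 and Per2, whose proteins form the repressor complex with the cryptochromes, varied between mice. Per1 ratios were -0.03, -0.37, -0.09 and 0.28 in mice 1 to 4, with -0.30 in the Fra-1hep pool. Per2 ratios were 0.25, -0.36, 0.0035 and -0.11 in mice 1 to 4, with -0.35 in the Fra-1hep pool. Both genes lay lowest in mouse 2, and the mice stood on both sides of the control pool. The fitted changes, -0.18 ± 0.11 for Per1 (adjusted p = 0.279) and -0.20 ± 0.10 for Per2 (adjusted p = 0.202), did not pass. Their intervals were 0.738 to 1.06 and 0.733 to 1.03 times control. On the mice alone, without the swapped array, the changes were -0.053 for Per1 and -0.054 for Per2.

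Per3, the third Period gene, differed in sign from both Per1 and Per2 only in mouse 2 and the Fra-1hep pool. Its ratios were 0.09, 0.28, 0.13 and 0.03 in mice 1 to 4, with 0.08 in the Fra-1hep pool. All were above 0, but the change of 0.11 ± 0.06 did not pass (adjusted p = 0.257, limma; log2 interval -0.044 to 0.26).

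The receptors of the second loop did not pass either. Nr1d1 ratios were -0.06, 0.47, -0.0051 and 0.08 in mice 1 to 4, with 0.27 in the Fra-1hep pool, so that mouse 2 stood above the other mice. The change was 0.19 ± 0.10 (adjusted p = 0.2, limma; interval 0.969 to 1.35 times control). Nr1d2 ratios were -0.16, -0.09, -0.18 and 0.05 in mice 1 to 4, with -0.28 in the Fra-1hep pool, with mouse 4 alone above the control pool. The change was -0.19 ± 0.06 (adjusted p = 0.0672, limma), with a 95% interval, not adjusted for the number of features, of 0.79 to 0.973 times control, and -0.098 on the mice alone. The fitted changes of these 2 receptors, which act at the same elements, had opposite signs, and a difference between them was not tested.

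Dbp, the D-box activator and a direct E-box target of CLOCK and BMAL1, was the member nearest control. Its ratios were -0.06, 0.10, 0.08 and 0.06 in mice 1 to 4, with -0.011 in the Fra-1hep pool. The fit gave 0.017 ± 0.057 (adjusted p = 0.856, limma), with an interval of 0.922 to 1.11 times control, or 0.898 to 1.14 with a spread for the pooled controls added. The other Dbp probe read 0.07, -0.22, -0.18 and -0.06 in mice 1 to 4, with 0.07 in the Fra-1hep pool, with a fitted change of -0.013 ± 0.070. The order of the mice differed between the probes. Over the 17 processing alternatives the change in Dbp stayed between 0.0019 and 0.058. Some of them, such as the minimum change or the control pool's spread, alter only the test and cannot move this value.

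**Figure D2:**
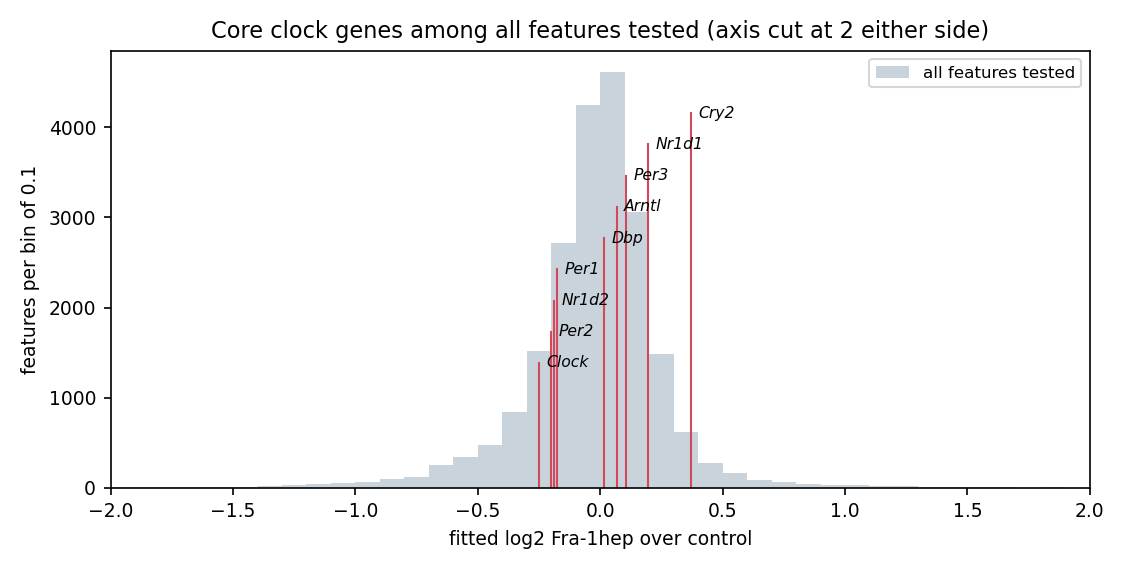
Distribution of the fitted log2 change over all 21538 features tested (grey bars, 0.1 wide, shown between -2 and 2), with red lines at the 9 clock genes; line height has no meaning. All 9 lie between -0.25 and 0.37, and Cry2 lies furthest out, with 4.32% of features at or above it.

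Grouped by the promoter elements known to drive them, not by the letters found in the windows above, the members did not split into 2 directions. Nr1d2, for example, is placed with the E-box genes, though its window held only a RORE half-site. Of 7 genes activated mainly through E-boxes or D-boxes (Per1, Per2, Per3, Nr1d1, Nr1d2, Dbp and Cry2), 4 had a positive and 3 a negative fitted change, with a median of 0.017. By the peak times given above, these genes do not share a phase, with Nr1d1 around midday and Per1 and Per2 around dusk. Sampled between such peaks, a phase shift would itself move them in opposite directions. Since the time of sampling is not given, their signs cannot decide whether the phase had shifted. Of the 2 tested genes of the RORE arm, Arntl was positive and Clock negative. The median ratio of the E-box and D-box genes was -0.032, 0.10, 0.0035 and 0.056 in mice 1 to 4, with -0.011 in the Fra-1hep pool. That of Arntl and Clock was -0.31, 0.016, -0.23 and -0.08 in mice 1 to 4, with -0.033 in the Fra-1hep pool. The median of these 2 genes stood below that of the E-box and D-box genes on all 5 arrays, by 0.022 (Fra-1hep pool) to 0.28 (mouse 1). Clock lay below the E-box and D-box median on each array, while Arntl was above it in mouse 2 and in the Fra-1hep pool. Arntl and Dbp, of opposite phase in mouse liver, both had intervals that include 0.

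The clock genes differed in how far the mice varied among themselves. The SD over the 4 mice was 0.27 for Per1, 0.25 for Per2, 0.24 for Nr1d1 and 0.23 for Arntl, larger than that of 92.6%, 91%, 89.9% and 88.8% of all features, where the median SD was 0.12. Dbp had an SD of 0.07 at its brighter probe, and 21.5% of features had a smaller one. Clock, Per3, Nr1d2 and Cry2 lay between, at 0.10 to 0.15. At the other Dbp probe the SD was 0.13, so its small spread held at 1 probe only. The same control pool was on the 4 arrays. Mouse 2 was the highest of the 4 in Arntl, Nr1d1, Per3, Cry2 and Dbp and the lowest in Per1 and Per2. Mouse 4 was the highest in Per1, Nr1d2 and Clock, and mouse 1 the lowest in Arntl, Clock, Nr1d1, Cry2 and Dbp. In mouse 2, therefore, Arntl and Nr1d1, whose peaks lie apart in the day, were high together. The ranks of Dbp are those of its brighter probe. At its other probe mouse 2 was the lowest (-0.22) and mouse 1 the highest (0.07).

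Per1 is also induced directly by glucocorticoids. Among 10 other glucocorticoid-responsive or receptor genes, mouse 2 was the lowest mouse in 6 and mouse 4 the highest in 6, which are the mice at either end of Per1. These were not the same genes, and both held only in Errfi1, Tsc22d3, Ddit4 and Zbtb16. Tat and Klf9 were lowest in mouse 1, Sgk1 was highest in mouse 3 and Nr3c1 in mouse 1. Dusp1 and Fkbp5 were lowest in mouse 1 and highest in mouse 3. Tsc22d3, which encodes the glucocorticoid-induced leucine zipper, read -0.66, -1.11, -0.46 and 0.56 in mice 1 to 4. Ddit4, a stress-induced inhibitor of mTORC1, read -0.75, -0.79, 0.09 and 0.93. Mouse 2 was also the lowest in 6 of 10 temperature-responsive and 9 of 22 rhythmic liver genes, and mouse 4 the highest in 5 and 9 of them. With 4 mice no relation was tested. As a genotype effect, 2 of the 10 passed and both were lower, where 15.4% of all features were lower and 11.2% higher. They were Errfi1, a feedback inhibitor of EGFR (-0.72 ± 0.19, adjusted p = 0.032, limma), and Tat, tyrosine aminotransferase (-0.58 ± 0.18, adjusted p = 0.0491, limma). The call of Errfi1 ended without mouse 1 (adjusted p = 0.0551), and that of Tat without mouse 1, 2 or 3 (adjusted p up to 0.0689) or without the swapped array (-0.33, adjusted p = 0.146); both also ended with processed or deposited values and once a spread of the control mice was allowed for. Fkbp5, a glucocorticoid receptor target, lay at -0.05 ± 0.06.

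**Figure D3:**
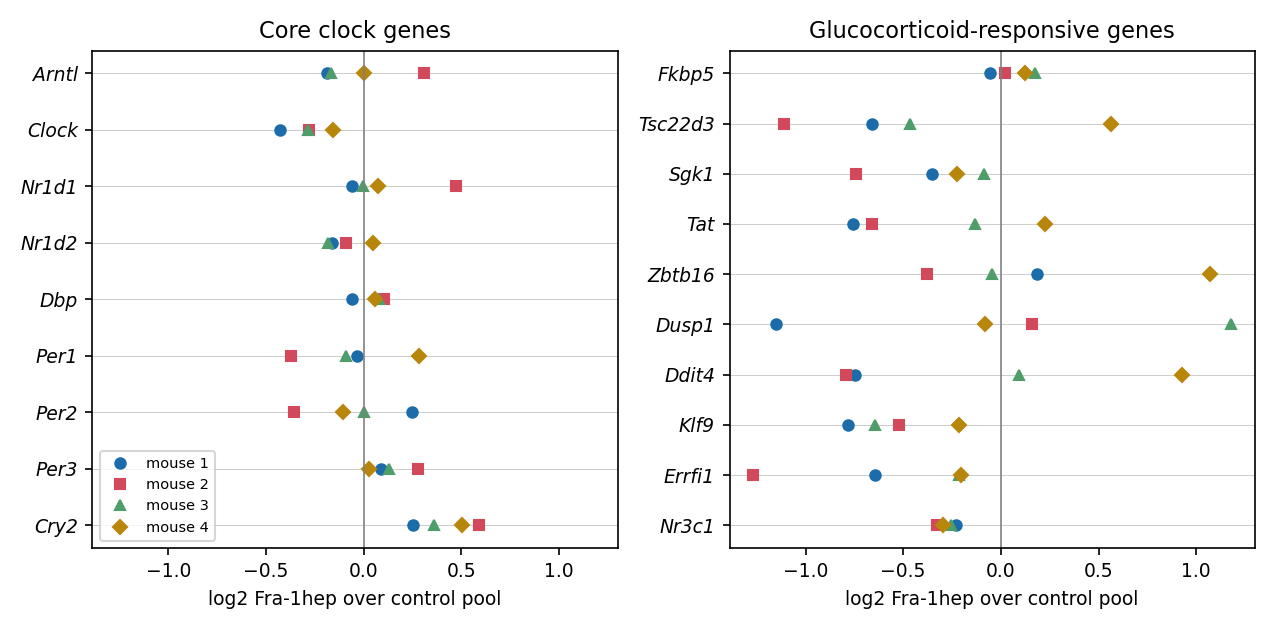
Log2 ratio over the control pool in each of the 4 Fra-1hep mice, for the 9 core clock genes (left) and 10 glucocorticoid-responsive genes (right) on the same axis. Mouse 2 is lowest and mouse 4 highest for Per1 and for Tsc22d3. Among the clock genes the mice lie closest together for Dbp, shown at its brighter probe.

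Of 10 genes that link to the core loop, 7 were tested and 1 passed, where 26.6% of all features passed. The 6 described here did not pass. Rora, which encodes a ROR receptor, had ratios of -0.21, 0.22, 0.12 and 0.21 in mice 1 to 4, with -0.61 in the Fra-1hep pool, so that 3 mice lay above control and the pool below. Its fitted change was -0.26 ± 0.09 (adjusted p = 0.0695), and the mice averaged 0.084. Nfil3, the D-box repressor, lay at 0.20 ± 0.14, with 0.81 in mouse 2 as its highest ratio. The D-box activators Hlf (0.24 ± 0.08, adjusted p = 0.062) and Tef (-0.07 ± 0.06) did not pass. For Hlf the mice read 0.28 to 0.66 and the Fra-1hep pool -0.016; it passed with mouse 2 left out (0.28, adjusted p = 0.0222) or on the mice alone (0.50, adjusted p = 0.00227). Ciart, a repressor of CLOCK and BMAL1, was at -0.47 ± 0.17 (adjusted p = 0.0851) and passed as lower without mouse 4 (-0.55, adjusted p = 0.0418). Bhlhe40, an E-box repressor, was at -0.18 ± 0.12 and passed as lower without mouse 3 (-0.26, adjusted p = 0.0488), as did Rora without mouse 1 (-0.21, adjusted p = 0.0387). Npas2, Rorb and Bhlhe41 were too dim to test.

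Of 24 kinases, ubiquitin ligases and cofactors that act on clock proteins, 1 was higher, 2 were lower and 21 did not pass, with a median of -0.08, where 11.2% of all features were higher and 15.4% lower. Ep300, the acetyltransferase p300, fell by 0.41 (SE 0.06, adjusted p = 0.00455, limma). Its mice averaged -0.15 and the Fra-1hep pool read -0.68, and without that array it did not pass (-0.15, adjusted p = 0.0816). Fbxl21, an F-box protein that acts on cryptochromes, was 0.21 ± 0.06 higher at its brighter probe, and the mean of its 2 probes, 0.06, did not pass. Csnk2a1, a casein kinase 2 subunit, was lower by the fit (-0.17 ± 0.05), while its mice averaged 0.009 and the Fra-1hep pool read -0.36. The calls of both Fbxl21 and Csnk2a1 ended without any 1 of the 4 mice. Without the swapped array 5 of the 24 were higher, among them Csnk1d and Btrc, which phosphorylate and ubiquitinate PER proteins. In that setting 2 were lower, Cipc (-0.22) and Prkaa1 (-0.24). Of the 21538 features, 3642 were then higher and 4079 lower.

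Genes known to be rhythmic in mouse liver changed in both directions. Of 22 tested, 5 were higher, 6 lower and 11 did not pass, with a median of -0.28 and a range of -1.74 to 1.48. Called genes made up 11 of the 22, against 26.6% of all features. The list was chosen with earlier results of these data known, so its share cannot be set against that of all features as a test. Over the 17 processing alternatives, 3 to 5 were higher and 4 to 9 lower. Avpr1a, a vasopressin receptor gene, had ratios of 1.49, 1.59, 1.49 and 1.24 in mice 1 to 4, with 1.52 in the Fra-1hep pool, and rose 2.80-fold (1.48 ± 0.08, adjusted p = 5.81e-05, limma). Elovl3, a fatty acid elongase with a strong daily rhythm, had ratios of -2.27, -1.51, -1.37 and -1.21 in mice 1 to 4, with -1.88 in the Fra-1hep pool, and fell by 1.74 on the log2 scale (SE 0.18, adjusted p = 0.00102). Insig2, an anchor that holds SREBP proteins in the endoplasmic reticulum, fell by 1.56 (SE 0.10). Each of these 3 genes kept 1 sign on all 5 arrays.

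Other genes that rose included Tspan4, a tetraspanin (0.81 ± 0.10), and Wee1, a cell cycle kinase under E-box control (0.34 ± 0.06). Wee1 averaged 0.15 in the mice, read 0.54 in the Fra-1hep pool and did not pass without that array (adjusted p = 0.0665). Further falls were those of Cdkn1a, the cell cycle inhibitor p21 (-1.23 ± 0.20), and Cyp2b10, a xenobiotic hydroxylase (-1.05 ± 0.16). A further 3 that passed, named after their values were seen, were Cyp7a1, the rate-limiting enzyme of bile acid synthesis (0.98 ± 0.24), Gys2, liver glycogen synthase (-0.40 ± 0.08), and Noct, the rhythmic phosphatase nocturnin (-1.08 ± 0.31). The call of Cyp7a1 ended without mouse 3 (0.96, adjusted p = 0.0503), and that of Noct without mouse 1 (-1.11, adjusted p = 0.0639) or mouse 3 (-1.13, adjusted p = 0.0652). Both calls also ended once a spread of the control mice was allowed for (adjusted p = 0.079 for Cyp7a1 and 0.126 for Noct) and with processed or deposited values (0.0732 and 0.117). Nampt and Por, chosen after their values were seen, lay at -0.10 ± 0.06 and -0.0061 ± 0.063. Rgs16, a G protein regulator, did not pass (-0.50 ± 0.16, adjusted p = 0.0536); it passed as lower without mouse 1 (-0.41, adjusted p = 0.0127), mouse 2 or the swapped array.

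**Figure D4:**
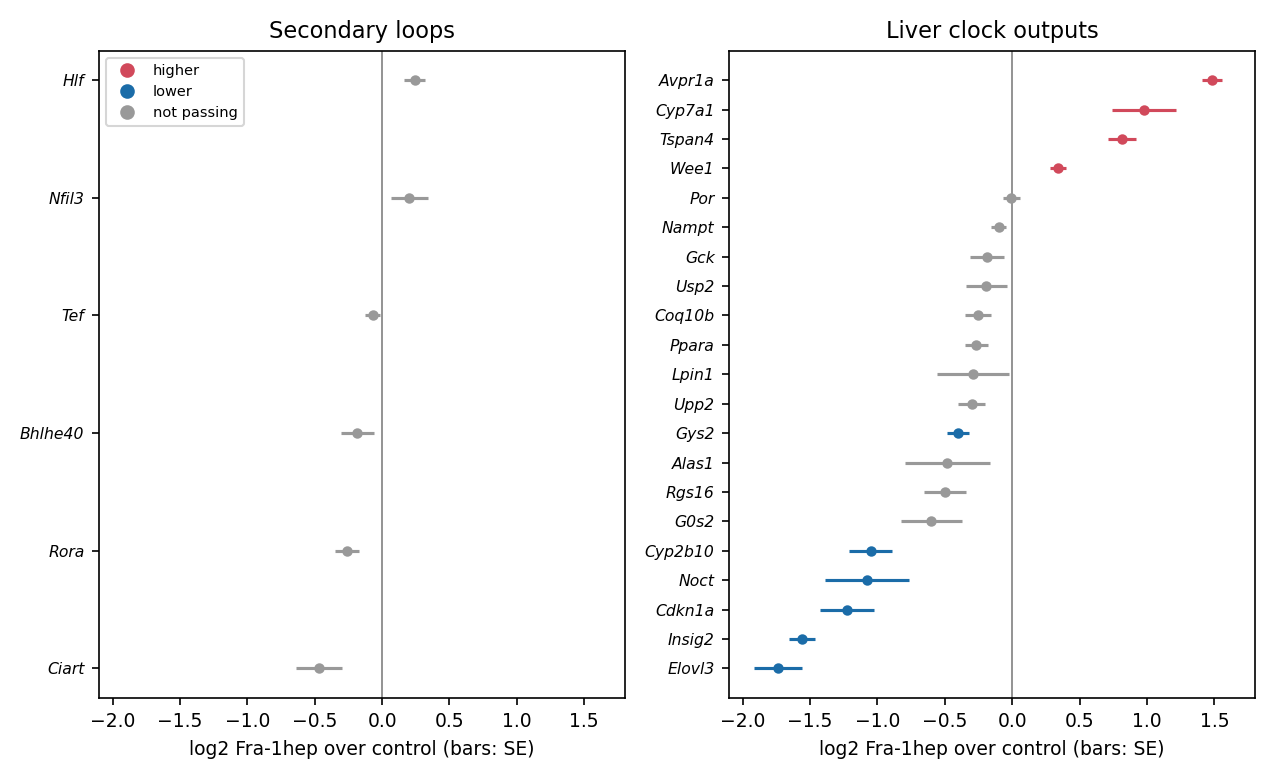
Fitted log2 change of Fra-1hep over control with its standard error for genes that link to the core loop (left, 6 shown) and rhythmic liver genes (right, 21 shown), red where higher, blue where lower and grey where the test was not passed. The 6 linked genes shown are grey, and the rhythmic genes run from Elovl3 at -1.74 to Avpr1a at 1.48.

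Genes that follow the body's daily cues were read alongside. Of 10 temperature-responsive genes tested, 2 of 8 heat shock genes, Hspb1 (-1.53 ± 0.09) and Hsp90aa1 (-0.46 ± 0.09), were lower and 6 did not pass (-0.25 to 0.14). The cold-inducible Cirbp was higher (0.54 ± 0.09), while Rbm3, the other cold-inducible gene, did not pass (0.17 ± 0.07). Without the swapped array Rbm3 was higher (0.28, adjusted p = 0.014, limma). It was also higher when the dye effect was dropped from the fit (0.24, adjusted p = 0.0337, limma). The mean of its 3 probes, 0.0022, did not pass. Of 11 fasting-induced genes, 3 were lower, among them Ppargc1a (-0.65 ± 0.08) and Cpt1a (-0.24 ± 0.06), and 1 was higher, G6pc (0.66 ± 0.12), against 26.6% of all features called in either direction. Pck1 (0.46 ± 0.16) and Fgf21 (0.56 ± 0.18), a gluconeogenic enzyme and a fasting hormone, did not pass, but were higher without mouse 1 (0.56 and 0.66) and without the swapped array (0.70 and 0.57). Ppargc1a averaged -0.27 in the mice and read -1.03 in the Fra-1hep pool, and the mean of its 2 probes was -0.34. The call of Cpt1a ended without mouse 3 (adjusted p = 0.0565, limma). It also ended with median centring (adjusted p = 0.104), with offset 0 (0.055) and once a spread of the control mice was allowed for (0.08). Of 8 feeding-induced genes, Srebf1 was higher (0.40 ± 0.11) and 7 did not pass; the call of Srebf1 ended without mouse 4 (adjusted p = 0.0738), with processed or deposited values and once a spread of the control mice was allowed for. The part of these cues in the clock values was not tested.

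The clock runs in each liver cell type, and in whole liver fewer cells of a type and less RNA per cell cannot be told apart. Macrophage markers were lower in 4 of 7 tested (medians from -1.14 to -0.31 over the arrays), stellate cell markers in 6 of 7 (-1.25 to -0.84) and endothelial markers in 3 of 7 (-0.61 to -0.12), and neutrophil markers were higher in 5 of 6 (1.88 to 3.52). Of all features, 15.4% were lower and 11.2% higher. The call of 2 of the 3 endothelial markers ended without mouse 4 (adjusted p = 0.0526 and 0.0728), with processed or deposited values and once a spread of the control mice was allowed for. With that spread the calls of the macrophage marker Cd5l (adjusted p = 0.0564, limma) and the stellate marker Lrat (adjusted p = 0.0597, limma) ended too. The call of Lrat also ended with processed or deposited values (adjusted p = 0.0586, limma). Among hepatocyte markers 1 of 8 was higher and 7 did not pass. For 3 of those 7 all 4 mice lay above control and the Fra-1hep pool below it, and these were higher on the mice alone (0.58 to 0.88). Tdo2 went the other way, with all 4 mice below control and the Fra-1hep pool above it (0.24). It was lower on the mice alone (-0.20, adjusted p = 0.0221, limma). Mouse 2, highest in Arntl and Nr1d1 and lowest in Per1 and Per2, had the highest ratio of the 4 mice in 6 of 6 neutrophil, 7 of 7 endothelial and 6 of 7 macrophage markers. The part of cell composition in the clock values was not tested.

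The genes outside these lists whose ratios lay closest to those of Cry2 over the 5 arrays were Llgl2, Reps2 and Frg2f1, at Euclidean distances of 0.12, 0.12 and 0.14 on the log2 scale among 13043 named genes. Those closest to Clock were Mkks, Poglut3 and Bcl2l13, at 0.088, 0.092 and 0.095.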

How the data were processed

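Liver RNA was measured on 5 Agilent two-colour arrays of 62976 spots. Per the file headers, the authors extracted spot intensities with Feature Extraction 10.7.3.1 (10.7 per the submitters' processing notes). The deposited files give raw median intensities, processed signals, the red over green log10 ratio and quality flags, per the file headers. The deposited table holds log2 ratios: its columns had slopes on the scanner ratios of 1.00 (mice) and -1.00 (swapped array), with medians of 0.13, 0.08, 0.04, 0.13 and -0.04, so its direction is Fra-1hep over control and it was not centred. The labels give no other step behind it. RNA integrity was above 7.8 and 100 ng was labelled, per the labels' protocols.

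Raw medians were corrected with normexp (offset 50), normalized by loess within arrays, and averaged over the spots of a probe. Control spots had no weight and 177 outlier spots were left out. Of 55681 probes, 26056 were named by accession in a RefSeq table (GRCm38.p6). A probe was kept if at least 3 arrays had it well above background in either channel (28121 probes), and the brightest stood for its gene. Log ratios were fitted in limma 3.58.1 (R 4.3.3) with a genotype coefficient and a dye intercept, tested on simulated data first; 3 residual and 3.99 prior degrees of freedom entered each test, and the number of arrays limits the precision. Intervals are 95% from that fit. The value of the other Dbp probe comes from a fit over all kept probes. The Fra-1hep pool counts as 1 array and may hold the same mice. The p-values measure the spread between these mice against 1 pool.

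The clock genes and all lists were chosen with earlier results of these data known. Named are all clock and linked genes, up to 8 passing genes of each other list by p, and the nearest profiles; any other gene was chosen after its values were seen. Some genes of these lists are counted but not reported by name here.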

Additional observations from a re-analysis of the deposited data

How the results depend on the processing

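Of the 9 clock genes, Per1, Per2, Per3, Nr1d1, Nr1d2 and Dbp kept their direction and stayed on the same side of the threshold under all 17 alternatives, and Cry2 in 16. The sign of Arntl turned without the swapped array (-0.012), where it did not pass either. The cause was not tested. The count of clock genes lower was 0 with processed signals, deposited values, the control pool's spread or a minimum change of 1.2-fold, and 0 to 1 without 1 mouse. The count higher was 0 at that minimum change. Linked genes higher numbered 2 with no dye term or without the swapped array, 0 at the minimum change and 1 to 2 without 1 mouse; those lower numbered 1 with the slide as a block or median centring and 0 to 1 without 1 mouse. Clock modifiers higher numbered 3 with no dye term, 5 without the swapped array, and 0 with the slide block, median centring, no filter, mean of probes, the pool's spread, the minimum change or any 1 mouse left out. Modifiers lower numbered 1 with no dye term, processed signals, offset 0, median centring, deposited values, no filter, mean of probes or the pool's spread, 0 at the minimum change, and 1 to 2 without 1 mouse. Liver clock outputs higher numbered 3 at the minimum change. Of all features, 3642 were higher without the swapped array and 1403 under median centring; with the pool's spread 1082 were higher and 1762 lower, and at the minimum change 330 and 716. Of passing features 42% were higher, against 32.4% under median centring. The E-box and D-box median, 0.024 over the 5 arrays, was 0.19 under median centring; that of the RORE genes ran from -0.19 to -0.068. The dye term and the tests do not enter these medians. The slide block equals leaving out mouse 1, the 1 array on its slide. No paired analysis was possible because all mice were set against 1 control pool. Dim signal limits Cry1, Npas2, Rorb and Bhlhe41.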
